A study of Mus musculus with 6 samples.

Results

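The genes of nitric oxide and cyclic GMP signalling were described in RNA from adult mouse optic nerves. The set holds 10 genes, Nos1, Nos3, Gucy1a2, Gucy1a3, Gucy1b3, Prkg1, Prkg2, Pde5a, Ddah1 and Ddah2, chosen by name from the 24062 gene symbols in the count files, and all 10 were present. Total RNA was amplified and sequenced from 3 libraries with the title NF1 f/f (genotype PlpCreERT2;Nf1flox/flox) and 3 with the title Ctrl, of which library 1 is Nf1flox/flox and libraries 2 and 3 are Nf1flox/+. The labels describe tamoxifen treatment of adult animals more than 2 months old, and the nerves were taken 1 month later. All groups thus carry at least 1 floxed Nf1 allele. The controls carry no Cre recombinase, so an effect of Cre with tamoxifen cannot be told apart from loss of Nf1. PlpCreERT2 is a tamoxifen-activated Cre that is active in mature oligodendrocytes and in other glia. The series title gives the question, the effect of homozygous loss of Nf1, a brake on Ras, in mature oligodendrocytes. Whether the libraries came from different animals is not stated in the labels, so the tests rest on the scatter among libraries, part of which may be technical.

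Nitric oxide is made from arginine by nitric oxide synthases and diffuses to soluble guanylyl cyclase, a dimer of an alpha and a beta subunit that makes cyclic GMP. Cyclic GMP activates the kinases encoded by Prkg1 and Prkg2 and is broken down by phosphodiesterases such as Pde5a. In the brain this pathway is known for signalling at synapses, and in vessels for the relaxation of smooth muscle.

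The data showed a rise of 2 guanylyl cyclase subunit genes in NF1 f/f libraries. Markers of striatal neurons were higher in the same libraries, so the rise may not be a change within the nerve. Gucy1a3, the alpha 1 subunit, was 5.78-fold and Gucy1b3, the beta 1 subunit, 4.22-fold above Ctrl. They were 2 of the 10 genes that passed edgeR's quasi-likelihood test at an adjusted p under 0.05 in the upward direction, as did 2.95% of the 16315 genes tested (3.29% in either direction). None of the 10 passed downward, where 0.337% of all genes did. At an unadjusted p under 0.05 there were 6 genes higher and 1 lower, where 11.2% and 8.02% of all genes were. DESeq2 called 6 of the set higher and 0 lower, beside 6.45% and 2.73% of all genes. By limma-voom 2 of the set were called higher and 0 lower, beside 418 and 88 of the 16315 genes. Groups did not overlap in 6 genes that were higher in NF1 f/f and in 1 gene, Pde5a, that was lower, against 12.5% and 11.5% of all genes (24.0% in either direction). All 10 genes passed the filter on low counts. Their median log2 fold change was 1.16, beside -0.002 over all genes tested. The set was chosen with earlier results of these data known, so these comparisons with all genes describe it and do not test it.

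Total counts were 13555756 to 19012262 in NF1 f/f libraries and 21307855 to 23662698 in Ctrl libraries. Libraries are numbered in order of deposit. Nf1 itself had 304, 226 and 433 CPM (counts scaled by library size) in NF1 f/f libraries 1, 2 and 3, against 394, 400 and 337 CPM in Ctrl libraries. Its log2 fold change of -0.23 did not pass (SE 0.28, edgeR adjusted p 0.703). Only 1 count per gene is given, so the deleted part of Nf1 cannot be seen. NF1 f/f libraries 1 and 3 stood apart. The summed CPM of 10 markers of mature oligodendrocytes was 5425 and 4662 there and 33820 in NF1 f/f library 2, against 25880 to 26700 in Ctrl libraries. Xist had 30602 to 51760 counts in the 3 NF1 f/f libraries and 72727 in Ctrl library 2, against 34 and 58 in Ctrl libraries 3 and 1. Counts of Uty, Kdm5d, Eif2s3y and Ddx3y, which lie on the Y chromosome, summed to 0 in all 4 libraries with high Xist. They summed to 6275 and 7213 in Ctrl libraries 1 and 3. By these counts the 3 NF1 f/f libraries and Ctrl library 2 were female, and Ctrl libraries 1 and 3 male. Sex is thus partly confounded with genotype in every comparison of NF1 f/f with all Ctrl libraries. Against Ctrl library 2 alone, the 1 control with high Xist, all 10 fold changes kept their sign, as they did with Xist as a covariate. In both fits 0 of all genes passed after adjustment (17075 and 16315 genes), so that no gene of the set passed there says nothing about the set.

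Gucy1a3 and Gucy1b3 lie next to each other on the minus strand of chromosome 3 in the mm10 annotation of the files, at 82092427 to 82145877 and 82032004 to 82074711, with a gap of 17.7 kb and 0 annotated genes between them. Both rose, so their promoter windows are shown, from 250 bases before to 50 bases after a start site, taken from RefSeq on GRCm38.p6, the assembly that mm10 represents. RefSeq calls these genes Gucy1a1 and Gucy1b1. Capitals mark any match, on both strands, to GGGCGG (35.7% of the 32851 windows in the table hold it), CCAAT (37.4%) and TGACG (20.8%). The first window is chr3:82145601-82145900 and the second chr3:82074662-82074961, each on the minus strand and written 5′ to 3′.
Gucy1a3: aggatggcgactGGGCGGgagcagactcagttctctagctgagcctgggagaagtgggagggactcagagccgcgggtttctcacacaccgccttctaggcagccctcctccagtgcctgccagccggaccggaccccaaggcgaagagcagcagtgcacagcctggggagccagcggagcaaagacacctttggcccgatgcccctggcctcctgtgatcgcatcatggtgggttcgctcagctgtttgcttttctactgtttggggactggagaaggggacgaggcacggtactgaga
Gucy1b3: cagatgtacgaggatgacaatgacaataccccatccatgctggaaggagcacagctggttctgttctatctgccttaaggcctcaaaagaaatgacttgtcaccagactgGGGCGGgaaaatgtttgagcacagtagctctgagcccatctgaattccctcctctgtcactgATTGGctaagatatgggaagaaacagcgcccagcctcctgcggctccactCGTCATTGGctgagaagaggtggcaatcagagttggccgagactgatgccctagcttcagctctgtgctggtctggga
The window of Gucy1a3 holds 1 match to GGGCGG and none to the others. That of Gucy1b3 holds 1 match to GGGCGG, 2 to CCAAT and 1 to TGACG, which overlaps the second CCAAT match. The start site of the Gucy1a3 window lies 227 bases inside the first exon base of the deposited annotation, and a second RefSeq window of the gene, with its start site 804 bases inside, holds none of the 3. The full motif TGACGTCA was in none of the 10 windows found for 8 of the genes (1.79% of all windows). GGGCGG was in 7 of these 10 windows, CCAAT in 3 and TGACG in 3. Nos3 and Prkg2 had no window.

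Gucy1a3 had 300.5, 148.5 and 230.0 CPM in NF1 f/f libraries 1, 2 and 3, against 42.1, 35.7 and 39.75 CPM in Ctrl libraries 1, 2 and 3. Every NF1 f/f library was far above every Ctrl library, and library 2 was the lowest of the 3. The mean was 226 ± 76.1 CPM in NF1 f/f and 39.2 ± 3.25 CPM in Ctrl (SD, n = 3 each). This is a log2 fold change of 2.53 with an SE of 0.30 (edgeR adjusted p 0.00451). It was 2.67 against Ctrl library 2 alone (effect size only, with n = 1 Ctrl library in the fit) and 2.66 with Xist as a covariate (edgeR adjusted p 0.190). The call was lost without Ctrl library 1 (log2 fold change 2.59, edgeR adjusted p 0.0562) and held without each of the other 5 libraries. NF1 f/f library 2 alone against the 3 Ctrl libraries, a comparison added after the data were seen, gave 1.92, a value given without a test since that arm is 1 library.

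Gucy1b3, whose product carries the haem that senses nitric oxide, had 172.7, 60.8 and 127.9 CPM in NF1 f/f libraries 1, 2 and 3. It had 30.7, 25.9 and 29.2 CPM in Ctrl libraries 1, 2 and 3. The groups did not overlap, and library 2 of NF1 f/f was again the lowest of its group. The mean was 120.5 ± 56.3 CPM in NF1 f/f and 28.6 ± 2.45 CPM in Ctrl (SD, n = 3 each). In log2 terms the fold change was 2.08 (SE 0.36, edgeR adjusted p 0.0211). It was 2.22 against Ctrl library 2 alone (effect size only) and 2.21 with Xist as a covariate (edgeR adjusted p 0.388). The call of Gucy1b3 was less firm than that of Gucy1a3. It was lost without NF1 f/f library 1 (edgeR adjusted p 0.0688) or 3 (0.0660), and without Ctrl library 1 (0.131), 2 (0.132) or 3 (0.103), with log2 fold changes of 1.73 to 2.14. NF1 f/f library 2 alone against the 3 Ctrl libraries gave 1.09.

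Gucy1a2, the alpha 2 subunit that can replace alpha 1 in the dimer, lies on chromosome 9 (3532349 to 3905787). It had 292.8, 108.8 and 226.5 CPM in NF1 f/f libraries 1, 2 and 3, against 91.0, 80.6 and 94.3 CPM in Ctrl libraries 1, 2 and 3. There was no overlap, but NF1 f/f library 2 was close to the controls. In log2 terms the fold change was 1.24 (SE 0.34), which did not pass (edgeR adjusted p 0.0927). In that library alone log2 CPM was 0.30 above the Ctrl mean, and the gene passed without it, at 1.56 (edgeR adjusted p 0.000276). In that fit of 5 libraries 13.2% of all genes passed as higher and 13.8% as lower, among them 6 and 3 of the set of 10. It also passed by DESeq2 (adjusted p 0.0133), which called 6 of the set higher and 0 lower, and 6.45% and 2.73% of all genes.

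**Figure D1:**
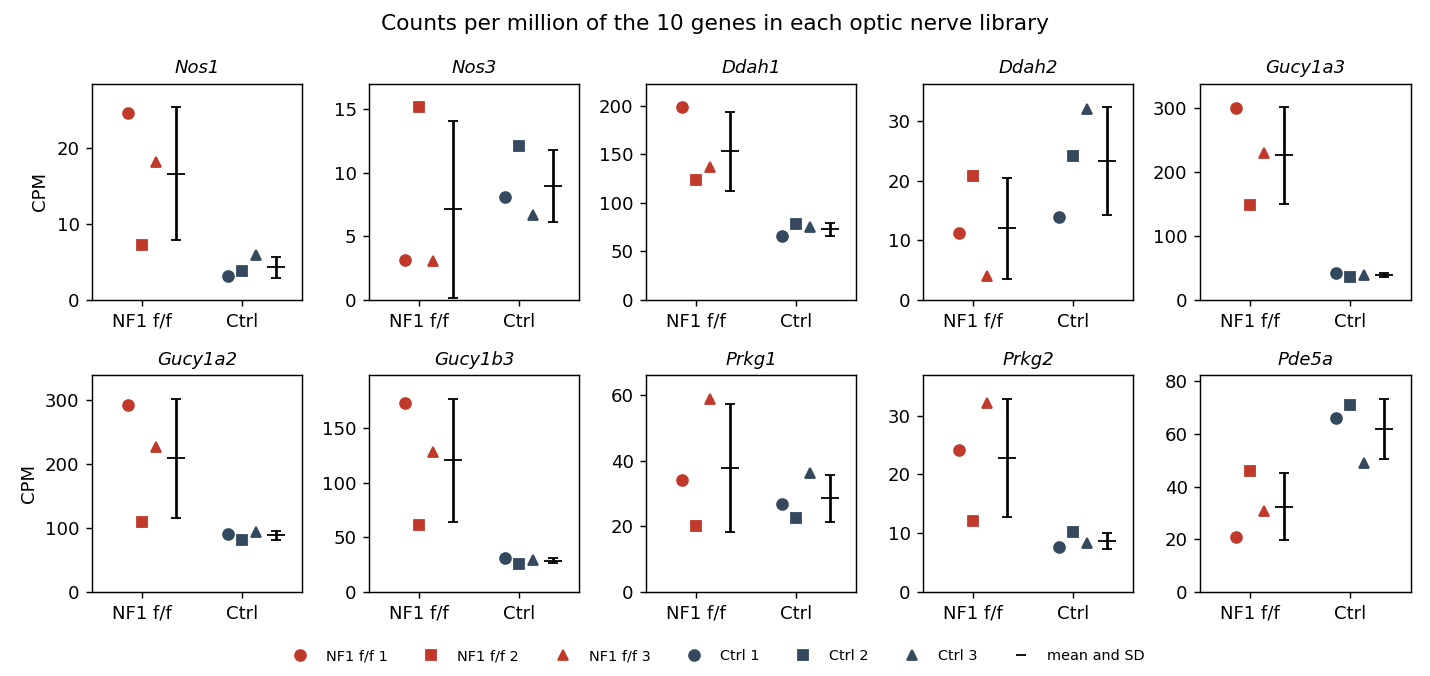
CPM (y axis of each panel, starting at 0) of the 10 genes in the 3 NF1 f/f libraries (red) and the 3 Ctrl libraries (dark blue). The marker shape gives the library number and the bar the mean and SD of the group. The 3 NF1 f/f values of Gucy1a3 sit between 148.5 and 300.5 CPM, all above the Ctrl values of 35.7 to 42.1 CPM.

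The proportions of the subunits in NF1 f/f and Ctrl libraries did not overlap. Per kilobase of annotated exon, Gucy1a3 made up 75.2%, 80.1% and 75.0% of the summed level of both alpha subunit genes in NF1 f/f libraries 1, 2 and 3. In Ctrl libraries 1, 2 and 3 it made up 57.7%, 56.6% and 55.4%. The share did not overlap between groups and was highest in NF1 f/f library 2. Gucy1a3 was also 54.9%, 63.0% and 55.7% of the summed level of Gucy1a3 and Gucy1b3 in NF1 f/f libraries, against 48.96%, 49.05% and 48.77% in Ctrl libraries. In controls the 2 genes thus stood at almost equal levels per length, and in every NF1 f/f library the alpha 1 gene was ahead. These shares were looked at after the fold changes were known and were not tested, and they assume that every annotated exon base is transcribed.

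**Figure D2:**
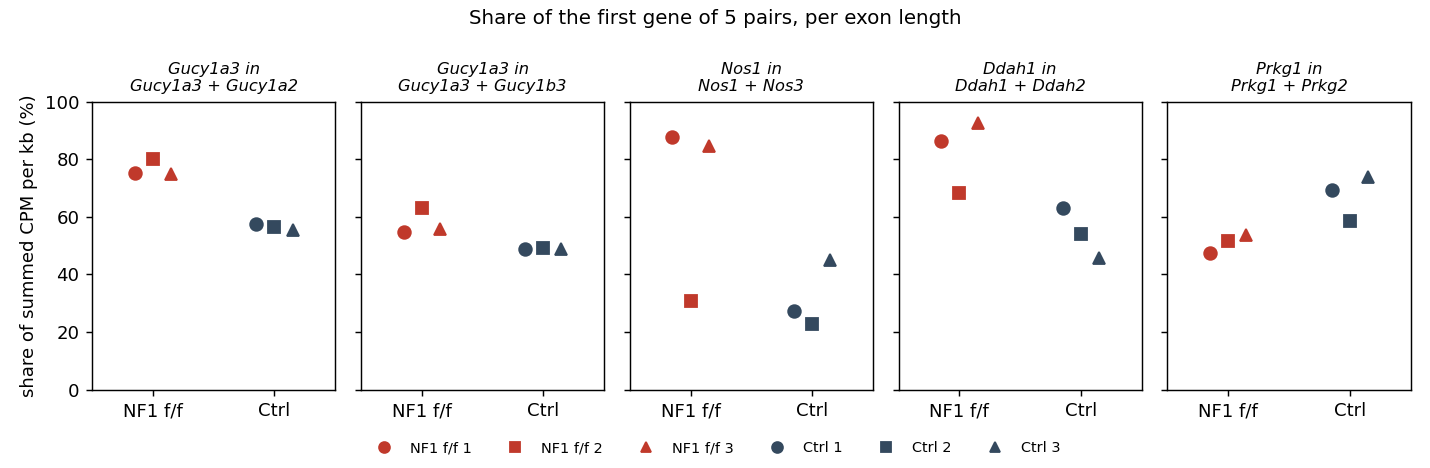
Share of the first gene in the summed CPM per kilobase of exon of 5 gene pairs (y axis, percent), for 3 NF1 f/f libraries (red) and 3 Ctrl libraries (dark blue); shapes give the library number. Gucy1a3 holds 75.0% to 80.1% of both alpha subunit genes in NF1 f/f libraries and 55.4% to 57.7% in Ctrl libraries.

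Nos1, the neuronal nitric oxide synthase (chromosome 5, 117867119 to 117953813), was low in Ctrl libraries and higher in NF1 f/f libraries, without passing the test. It had 24.55, 7.18 and 18.1 CPM in NF1 f/f libraries 1, 2 and 3, or 455, 95 and 259 counts. Ctrl libraries 1, 2 and 3 had 3.22, 3.82 and 5.85 CPM, or 65, 92 and 141 counts. All NF1 f/f values were above all Ctrl values, although NF1 f/f library 2 was only a little above Ctrl library 3. Nos1 had a log2 fold change of 1.95 with an SE of 0.47 (edgeR adjusted p 0.0635). It passed by DESeq2 (adjusted p 0.00156) and in edgeR without NF1 f/f library 2 (2.31, adjusted p 0.000570) or without a filter on low counts (adjusted p 0.0286). With no filter 4 of the set were called higher and 0 lower, and 3.49% and 0.585% of all genes.

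Nos3, the endothelial synthase, also lies on chromosome 5 (24364819 to 24384474). It had 3.18, 15.2 and 3.07 CPM in NF1 f/f libraries 1, 2 and 3, against 8.07, 12.1 and 6.68 CPM in Ctrl libraries 1, 2 and 3. The highest and the lowest of the 6 values were both NF1 f/f libraries, so the group mean of 7.15 ± 6.97 CPM (SD, n = 3) describes none of them. The log2 fold change was -0.33 with an SE of 0.62 (edgeR adjusted p 0.818). It was -1.51 without NF1 f/f library 2, where it passed (edgeR adjusted p 0.0158), and 0.76 in that library alone. Exons of Nos3 share 294 bases with Atg9b on the other strand, and the counts ignore strand, so its values are uncertain to that extent. Nos2, the inducible synthase, which was named after its values were seen, had 1, 0 and 5 counts in NF1 f/f libraries and 6, 27 and 11 counts in Ctrl libraries and was too low to test.

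The share of Nos1 in the summed level of Nos1 and Nos3 per kilobase was 87.9%, 30.75% and 84.7% in NF1 f/f libraries 1, 2 and 3. In Ctrl libraries 1, 2 and 3 it was 27.3%, 22.8% and 45.1%. The neuronal gene exceeded the endothelial one in NF1 f/f libraries 1 and 3, and in none of the other 4 libraries.

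Ddah1 and Ddah2 are named for the breakdown of asymmetric dimethylarginine, an inhibitor that the body makes against nitric oxide synthases. Ddah1 (chromosome 3, 145758692 to 145894277) had 199, 123 and 137 CPM in NF1 f/f libraries 1, 2 and 3, against 65.7, 78.2 and 74.7 CPM in Ctrl libraries 1, 2 and 3. The groups did not overlap, and NF1 f/f library 2 stood close to library 3. The log2 fold change was 1.07 (SE 0.25), just short of the threshold (edgeR adjusted p 0.0531). It passed by DESeq2 (adjusted p 0.00410), in edgeR without a filter on low counts (adjusted p 0.0395), and without NF1 f/f library 2 (adjusted p 0.00206).

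Ddah2 (chromosome 17, 35059035 to 35062099) had 11.2, 20.7 and 3.98 CPM in NF1 f/f libraries 1, 2 and 3. Ctrl libraries 1, 2 and 3 had 13.9, 24.1 and 31.9 CPM, and the ranges overlapped. On the log2 scale the difference was -0.96 (SE 0.54, edgeR adjusted p 0.375). It was -1.60 without NF1 f/f library 2, where it passed (edgeR adjusted p 0.0273). Per kilobase, Ddah1 made up 86.5%, 68.2% and 92.5% of both genes in NF1 f/f libraries 1, 2 and 3, against 63.1%, 53.9% and 45.8% in Ctrl libraries 1, 2 and 3, without overlap.

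Of the kinase genes, Prkg2 was higher in every NF1 f/f library and Prkg1 was not. Prkg2, the membrane-bound kinase (chromosome 5, 98929773 to 99037079), had 24.1, 12.1 and 32.2 CPM in NF1 f/f libraries 1, 2 and 3. It had 7.58, 10.2 and 8.26 CPM in Ctrl libraries 1, 2 and 3. All NF1 f/f values were higher, with library 2 just above the highest control. For Prkg2 the log2 fold change was 1.39 (SE 0.37), which did not pass (edgeR adjusted p 0.0834) except by DESeq2 (adjusted p 0.0102) and without NF1 f/f library 2 (adjusted p 0.00105).

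Prkg1, the kinase of smooth muscle and many neurons (chromosome 19, 30564487 to 31765033), had 34.15, 20.25 and 59.0 CPM in NF1 f/f libraries 1, 2 and 3. Ctrl libraries 1, 2 and 3 had 26.8, 22.5 and 36.4 CPM, and the groups overlapped with NF1 f/f libraries at both ends. The log2 fold change was 0.40 with an SE of 0.38 (edgeR adjusted p 0.613), and no alternative called it. Prkg1 made up 47.5%, 51.6% and 53.9% of the summed level of both kinase genes per kilobase in NF1 f/f libraries, against 69.3%, 58.5% and 73.7% in Ctrl libraries. That share did not overlap between the groups and was not tested.

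Pde5a, the phosphodiesterase that sildenafil blocks (chromosome 3, 122729158 to 122859374), was the 1 gene of the set with lower values in every NF1 f/f library than in any Ctrl library. It had 20.7, 45.8 and 30.6 CPM in NF1 f/f libraries 1, 2 and 3, against 66.0, 70.9 and 49.2 CPM in Ctrl libraries 1, 2 and 3. The groups did not overlap, but NF1 f/f library 2 and Ctrl library 3 were close. The log2 fold change was -0.94 (SE 0.32), which did not pass (edgeR adjusted p 0.153), and it was -1.27 without NF1 f/f library 2, where it passed (edgeR adjusted p 0.00550). Exons of Pde5a share 55 bases with 4930447N08Rik on the other strand.

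**Figure D3:**
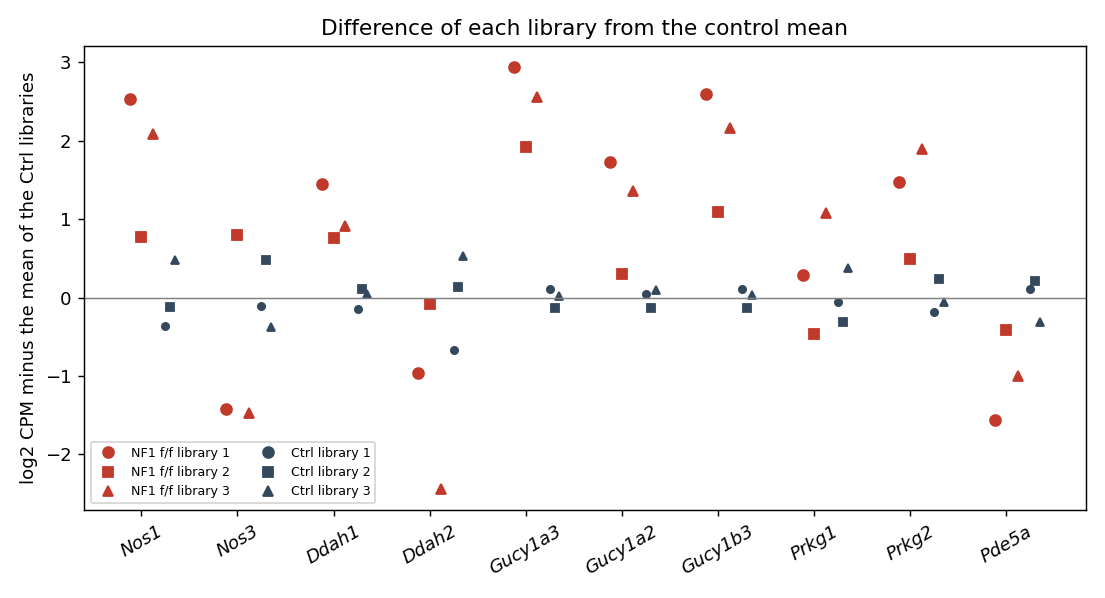
Difference of each library from the mean of the 3 Ctrl libraries in log2 CPM (y axis) for the 10 genes; NF1 f/f libraries are red, Ctrl libraries dark blue and smaller, and shapes give the library number. NF1 f/f library 2 (red square) lies nearest to 0 among the NF1 f/f libraries for 9 of the 10 genes, all but Prkg1, and at 1.92 for Gucy1a3.

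Per kilobase of exon, the order of the levels differed between the groups. In NF1 f/f libraries Gucy1a3 was first at 48.6 ± 16.35 CPM per kb, followed by Ddah1 at 40.85 ± 10.8, Gucy1b3 at 37.05 ± 17.3 and Gucy1a2 at 15.25 ± 6.79 (SD, n = 3 each). Each gene in that order overlapped its neighbour down to Nos3, the last, at 1.73 ± 1.69 CPM per kb. In Ctrl nerves Ddah1 was first at 19.45 ± 1.72 CPM per kb, followed by Ddah2 at 17.25 ± 6.70, Pde5a at 9.22 ± 1.69, Gucy1b3 at 8.79 ± 0.752 and Gucy1a3 at 8.42 ± 0.699 (SD, n = 3 each). Those 5 each overlapped their neighbour, whereas Gucy1a3 and Gucy1a2, Gucy1a2 and Prkg1, Prkg1 and Nos3, and Prkg2 and Nos1 did not. Nos1 was last in Ctrl nerves at 0.979 ± 0.314 CPM per kb.

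Sums of neuron markers were higher in the same libraries as Gucy1a3 and Gucy1b3. The summed CPM of 11 markers of striatal projection neurons was 1965, 1355 and 1406 in NF1 f/f libraries 1, 2 and 3, against 164.5, 148.7 and 204.5 in Ctrl libraries 1, 2 and 3. Of these markers 10 rose and 0 fell, and none was at 0. The sum of 9 general neuron markers was 6151, 1715 and 4342 in NF1 f/f libraries, against 537.6, 677 and 1012 in Ctrl libraries, with 5 rising. Of the 9, 7 were higher in every NF1 f/f library than in any Ctrl library (12.5% of all genes). Slc17a7 and Stmn2 were not. In NF1 f/f library 2 they had 0.076 and 38.4 CPM, below the lowest Ctrl values of 0.249 and 44.0 CPM. NF1 f/f library 2 had the lowest sum of both lists in its group, as it had the lowest CPM of Gucy1a3, Gucy1b3, Gucy1a2, Nos1, Prkg2 and Ddah1. For the striatal list this held for the sum but not for the mean over markers of log2 CPM minus the Ctrl mean. That mean was 3.93, 3.37 and 3.33 in NF1 f/f libraries 1, 2 and 3. The part of these cell types in the values of the 6 genes was not tested. In bulk RNA, more or fewer cells of a type and more or less RNA per cell cannot be told apart. The labels name optic nerve as the tissue, although these lists hold markers of striatal and other neurons. Whether RNA of tissue outside the nerve was in the NF1 f/f libraries was not tested. The rises given here are thus those of the libraries, and may not be changes within the nerve.

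Markers of a class of neurons rich in Nos1 gave mixed values. Their summed CPM was 134, 41.9 and 104 in NF1 f/f libraries, against 42.1, 22.3 and 99.1 in Ctrl libraries, so the sums overlapped, and of 6 tested 1 rose, Tacr1. Lhx6 did not overlap between the groups, at 11.4, 2.49 and 8.37 CPM in NF1 f/f libraries, against 0.446, 2.32 and 1.29 CPM in Ctrl libraries, without passing (edgeR adjusted p 0.107). Sst and Npy were high in Ctrl library 3, at 51.5 and 27.1 CPM. Markers of skeletal muscle, a tissue that also uses Nos1, summed to 2.16 to 3.56 CPM in NF1 f/f libraries and 1.95 to 5.35 CPM in Ctrl libraries.

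Sums of vessel markers are given beside Nos3 and Pde5a, neither of which passed. The 9 endothelial markers summed to 123, 235 and 130 CPM in NF1 f/f libraries 1, 2 and 3, against 310, 337 and 333 CPM in Ctrl libraries 1, 2 and 3, and 1 of them fell, Kdr. The 10 markers of pericytes and smooth muscle summed to 121, 244 and 114 CPM in NF1 f/f libraries, against 324, 304 and 326 CPM in Ctrl libraries, and 0 of 10 passed in edgeR, with 6 lower at an unadjusted p under 0.05. Both sums were lower in every NF1 f/f library than in any Ctrl library. Of the single markers, 5 endothelial and 6 of the other list were so (11.5% of all genes). In NF1 f/f library 2, where Nos3 was at its highest, Cldn5, Tie1, Emcn, Esam, Myh11, Abcc9 and Notch3 lay within the Ctrl range. Kcnj8 lay above that range there. No marker of either list was at 0. Their part in the values of Nos3 and Pde5a was not tested. Astrocyte markers summed to 5733 to 6869 CPM in NF1 f/f libraries and 5519 to 5667 CPM in Ctrl libraries, but the list went both ways. Of 8 markers 0 passed in edgeR, and at an unadjusted p under 0.05 Slc1a2 was higher, at 4772, 3214 and 3983 CPM in NF1 f/f libraries, against 2005, 1948 and 1813 CPM in Ctrl libraries. Gjb6 was lower, at 68.2, 140.4 and 83.1 CPM in NF1 f/f libraries, against 295.6, 248.6 and 211.5 CPM in Ctrl libraries. Gfap had 281, 1200 and 223 CPM in NF1 f/f libraries, against 1178, 1376 and 1308 CPM in Ctrl libraries.

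**Figure D4:**
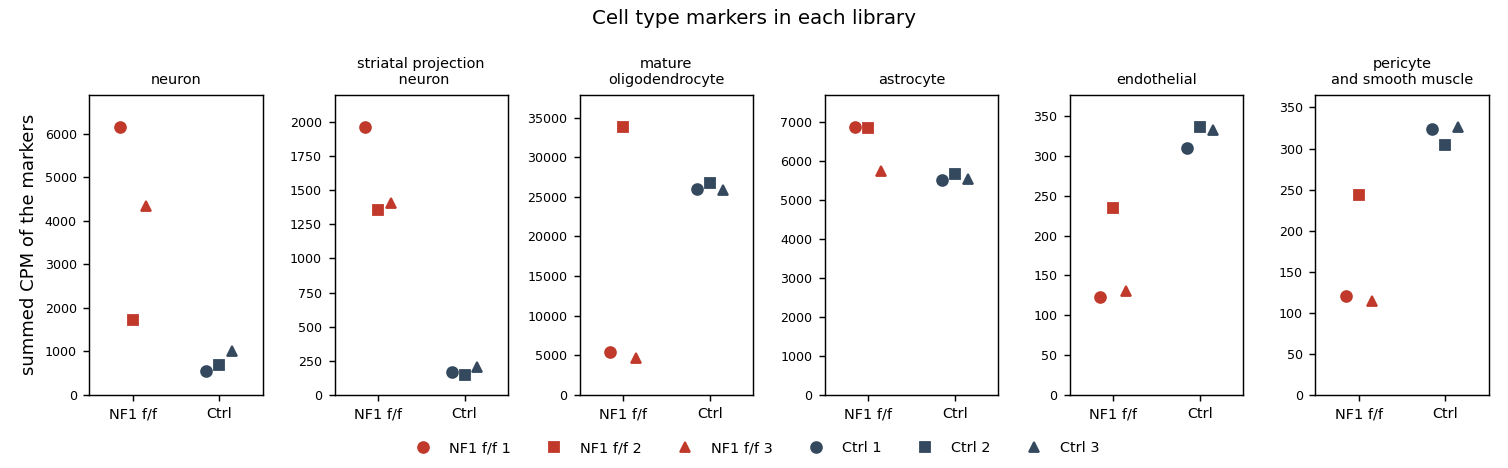
Summed CPM of 6 marker lists (y axis of each panel, starting at 0) in the 3 NF1 f/f libraries (red) and the 3 Ctrl libraries (dark blue); shapes give the library number. Striatal projection neuron markers sum to 1355 to 1965 CPM in NF1 f/f libraries and 148.7 to 204.5 CPM in Ctrl libraries, and endothelial markers to 123 to 235 CPM in NF1 f/f libraries and 310 to 337 CPM in Ctrl libraries.

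Among the other genes of the pathway, Pde10a, Pde1b, Pde2a, Dlg4 and Itpr1 rose. Of 65 further genes in 4 lists, 49 could be tested, 5 rose and 0 fell, where 2.95% and 0.337% of all genes did, and the median log2 fold change was -0.00. At an unadjusted p under 0.05 there were 11 higher and 8 lower (11.2% and 8.02% of all genes), and DESeq2 called 8 higher and 2 lower (6.45% and 2.73%). The groups did not overlap in 8 genes that were higher and 8 that were lower, against 12.5% and 11.5% of all genes. These lists too were chosen with earlier results known.

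Of 12 tested phosphodiesterase genes 3 rose and 9 did not pass. Pde10a, which breaks down cyclic AMP and cyclic GMP in striatal neurons, had 765, 458 and 507.2 CPM in NF1 f/f libraries 1, 2 and 3, against 36.85, 38.5 and 55.7 CPM in Ctrl libraries 1, 2 and 3 (log2 fold change 3.72, edgeR adjusted p 0.00161). Pde1b, which calcium and calmodulin activate, had 165.5, 89.6 and 98.2 CPM in NF1 f/f libraries, against 13.3, 14.5 and 13.4 CPM in Ctrl libraries (3.10, edgeR adjusted p 0.00161). Pde2a, which cyclic GMP itself stimulates, had 229, 107 and 164 CPM in NF1 f/f libraries, against 39.2, 33.4 and 37.2 CPM in Ctrl libraries (2.19, edgeR adjusted p 0.00826). In these genes no NF1 f/f value came near a Ctrl value. Pde10a and Pde1b passed without each library in turn, whereas Pde2a was lost without Ctrl library 1 (edgeR adjusted p 0.0779), 2 (0.0716) or 3 (0.0599). Pde5a had lower values in the same libraries in which these phosphodiesterase genes rose.

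In the list of nitric oxide synthesis and its supply, 1 of 18 tested genes rose, Dlg4, which encodes the postsynaptic scaffold PSD-95 that binds neuronal nitric oxide synthase. It had 275, 117 and 224 CPM in NF1 f/f libraries 1, 2 and 3, against 71.7, 57.4 and 77.3 CPM in Ctrl libraries 1, 2 and 3 (log2 fold change 1.58, edgeR adjusted p 0.0377). The call was lost without NF1 f/f library 1 (edgeR adjusted p 0.137) or 3 (0.118) and without Ctrl library 1 (0.183), 2 (0.2015) or 3 (0.1345). Gchfr, a regulator of the enzyme that starts synthesis of the cofactor tetrahydrobiopterin, had 6, 7 and 5 counts in NF1 f/f libraries, against 32, 25 and 54 in Ctrl libraries (-2.01, edgeR adjusted p 0.1345).

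In the list of cyclic GMP targets and export, 1 of 12 tested genes rose, Itpr1, the calcium release channel of the endoplasmic reticulum. It had 620, 338 and 336 CPM in NF1 f/f libraries 1, 2 and 3, against 165.5, 155 and 178.5 CPM in Ctrl libraries 1, 2 and 3 (log2 fold change 1.37, edgeR adjusted p 0.0429). The call was lost without NF1 f/f library 1 (edgeR adjusted p 0.124) or 3 (0.0660) and without Ctrl library 1 (0.205), 2 (0.223) or 3 (0.153). Kcnma1, a potassium channel that the cyclic GMP kinase can open, had 216, 50.6 and 174 CPM in NF1 f/f libraries, against 29.1, 35.5 and 48.9 CPM in Ctrl libraries (1.96, edgeR adjusted p 0.0657).

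Membrane guanylyl cyclases, some of them receptors of natriuretic peptides, are the other source of cyclic GMP. Of 7 tested genes of natriuretic peptides and other guanylyl cyclases 0 passed in either direction by edgeR, with 2 lower and 0 higher at an unadjusted p under 0.05, and the groups did not overlap in 4, all lower in NF1 f/f. The list median was -0.92, and Nppa (0.38) and Gucy2f (0.68) had positive log2 fold changes. Npr3, which clears natriuretic peptides, had 15.5, 30.1 and 12.1 CPM in NF1 f/f libraries 1, 2 and 3, against 51.6, 48.7 and 47.9 CPM in Ctrl libraries 1, 2 and 3 (log2 fold change -1.36, edgeR adjusted p 0.0691). It passed by DESeq2 and limma-voom. In edgeR it passed with total counts, with no filter on low counts and without NF1 f/f library 2 (-1.83, edgeR adjusted p 0.000339). Nppc, the precursor of C-type natriuretic peptide, had 31, 8 and 5 counts in NF1 f/f libraries, against 48, 70 and 83 in Ctrl libraries (-1.70, edgeR adjusted p 0.200). Beside Npr3, 6 fibroblast markers had a summed CPM of 179, 648 and 208 in NF1 f/f libraries, against 1123, 1034 and 1027 in Ctrl libraries, with 0 of 6 passing in edgeR and 6 lower at an unadjusted p under 0.05, and their part was not tested.

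**Figure D5:**
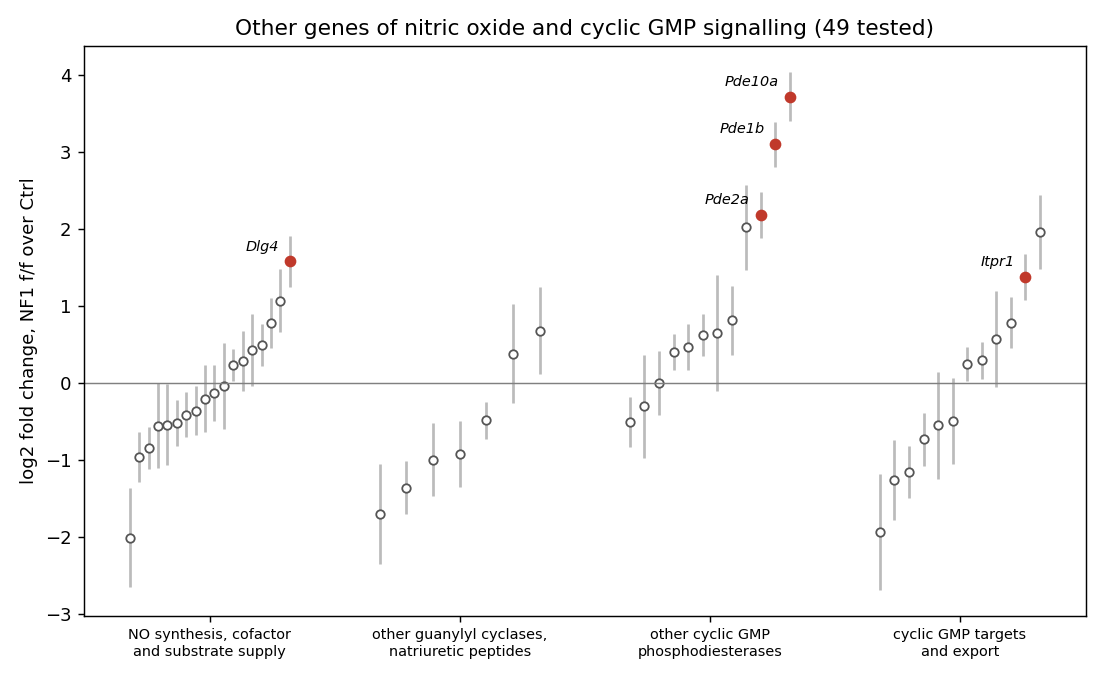
Log2 fold change of NF1 f/f over Ctrl (y axis) for the 49 tested pathway genes outside the set of 10, in 4 lists along the x axis and sorted within each; bars are 1 SE, and red points with names passed at an edgeR adjusted p under 0.05. The 5 red points lie between 1.37 and 3.72, and Pde10a is the highest.

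The genes whose profile over the 6 libraries was most like that of Gucy1a3 were Npas2, a circadian transcription factor gene, Tiam1, an activator of Rac, and Cacna2d3, a calcium channel subunit gene. The root mean square difference in centred log2 CPM was 0.05, 0.15 and 0.16, among 14804 candidate genes. For Gucy1b3 they were Grin1, an NMDA receptor subunit gene, Plcl2 and Camkk2, at 0.07, 0.08 and 0.09. Gucy1a3 and Gucy1b3 differed from each other by 0.30, and Nos1 differed from Gucy1b3 by 0.29. All 6 libraries share 1 contrast, so any gene with a similar rise and a similar value in NF1 f/f library 2 comes out as alike.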

How the data were processed

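RNA of optic nerves was amplified (NuGEN Ovation v2) and sequenced as Nextera XT libraries, as the labels' protocols say. The authors deposited raw counts of fragments per gene, which featureCounts 1.4.6-p4 made over exons of the UCSC mm10 annotation, unstranded, per the file headers. TopHat is named in the submitters' processing notes. All rows name a gene. The counts of every pair of libraries (15 pairs) differed beyond counting noise, with chi-square per degree of freedom at least 45.6. The fit used edgeR 4.0.16 (R 4.3.3) on all genes, with TMM scaling, filterByExpr (minimum count 10), quasi-likelihood F tests of NF1 f/f against Ctrl, and Benjamini-Hochberg adjustment over all genes tested. CPM were computed here from TMM-scaled library sizes, and log2 CPM with a prior count of 2. The SE is the log2 fold change divided by the square root of F. PCR copies are not independent molecules. Alternatives were other scalings, filters, DESeq2 1.42.0, limma-voom (limma 3.58.1), Xist as a covariate and leaving out libraries. The fit was also run on simulated counts with the same dispersion for all genes, and no result here rests on that run. Members and lists were chosen with earlier results of these data known. Named were all members, Nf1, the pathway genes that passed (filled up to 2 per list by smallest p), and the 3 genes most like each member that passed, gene models and small RNAs left out.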

Additional observations from a re-analysis of the deposited data

How the results depend on the processing

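No paired analysis was possible because the labels do not pair NF1 f/f libraries with Ctrl libraries. The count of genes of the set that rose, 2, was 6 by DESeq2 (6.45% of all genes) and 4 with no filter on low counts (3.49%). It was 0 by edgeR with Xist (log2 CPM) as a covariate, where 0 of all genes passed. It ranged from 0 to 6 when each library was left out in turn, and the count that fell, 0, from 0 to 3, while calls over all genes ranged from 51 without Ctrl library 1 to 4551 without NF1 f/f library 2. The count of pathway genes that rose, 5, was 8 by DESeq2 and 0 by edgeR with Xist as a covariate. It ranged from 2 to 13 with libraries left out. The count that fell, 0, was 1 with total counts, by limma-voom and with no filter on low counts, and 2 by DESeq2, and ranged from 0 to 9. No such count is given for the libraries with high Xist or for NF1 f/f library 2 alone (chosen after seeing the data). Each of these fits has 1 library in a group. In the libraries with high Xist the lone control is assumed to vary like the NF1 f/f libraries. With each library left out, Nos3 ranged from -1.51 to 0.03, with the positive values without NF1 f/f library 1 or 3 (0.027 and 0.028), and Prkg1 from -0.068 without NF1 f/f library 3 to 0.71. Nos3 also changed sign with NF1 f/f library 2 alone (0.76), and so did Prkg1 (-0.50). The cause was not tested. Of 170 fold changes under 17 alternatives, the other 165 kept their sign. The lowest counts behind a gene of the set were 44 for Nos3, 57 for Ddah2 and 65 for Nos1 in 1 library each, so these values are the least precise.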

Other observations

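Ass1, which makes the precursor of arginine and so feeds nitric oxide synthesis, was listed at 0 in all 6 libraries. Of its 1631 exon bases, 1552 are shared with the gene model Gm5424 on the same strand, which was also listed at 0 in all 6 libraries. Reads there cannot be given to 1 gene alone, so the 0 does not show that Ass1 RNA was absent. Ass1 was singled out after its values were seen.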
